A study of Homo sapiens with 8 samples.

Results

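The transcripts of the cytosolic ribosomal proteins were compared between sorted CSCs (cancer stem cells) of MDA-MB-231, a breast cancer line, that carried scramble, CDH2 or Cx43 shRNA. A gene was a member when its name was RPL or RPS followed by digits and at most a single A, L or X, and RPLP0, RPLP1, RPLP2 and RPSA were added. This rule found 79 of the 12939 genes of the table, 47 of the large and 32 of the small subunit, and it used no expression value. RPL3L and RPL10L, which the rule would have admitted, were not analysed here.

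MDA-MB-231 is a triple-negative, mesenchymal line. All 3 groups carried GFP driven by the Oct4a regulatory region and an RFP-tagged shRNA vector with puromycin selection, and CSCs were sorted as cells high for both GFP and RFP. The groups were scramble shRNA (3 libraries), CDH2 shRNA (3 libraries) and Cx43 shRNA (2 libraries), where CDH2 is N-cadherin and Cx43 is a gap junction protein. The CDH2 knockdown line was a single clone, and nothing states that the replicates came from separate cultures, so the p-values measure the spread between these libraries only. The sorted cells recovered overnight before total RNA was taken, rRNA was depleted, and the values are log2(CPM + 1) after removal of the sequencing run effect by the authors. The depth of the libraries is unknown, since the values hold no counts, and the number of replicates limits the precision. The transcripts of CDH2 and GJA1, the gene for Cx43, were not analysed here, and no value checks the knockdowns.

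Each cytosolic ribosome joins a small subunit, which reads the mRNA, to a large subunit, which forms the peptide bonds, and nearly every ribosomal protein is present in a single copy per ribosome. The genes are scattered over the genome, yet their mRNAs are known to be made in matched amounts. Most of these mRNAs begin with a C followed by a run of pyrimidines, the 5′ terminal oligopyrimidine (TOP) motif, through which LARP1 and mTORC1 regulate their translation and stability.

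The start sites of 7 members on which the results below turn are shown, from 10 bases before to 20 bases after the first transcribed base in RefSeq (GRCh38.p14), with the pyrimidine run in capitals. RPL39, RPS23 and RPS27L are the members that passed the test in CDH2 knockdown, and RPS7, RPL36, RPLP0 and RPL36A lay at the ends of the range in Cx43 knockdown.
RPL39: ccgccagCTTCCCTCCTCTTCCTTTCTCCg
RPS23: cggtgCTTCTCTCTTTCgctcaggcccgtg
RPS27L: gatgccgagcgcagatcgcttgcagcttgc
RPS7: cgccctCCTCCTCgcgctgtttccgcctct
RPL36: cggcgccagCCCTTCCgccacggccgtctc
RPLP0: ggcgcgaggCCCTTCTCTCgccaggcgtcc
RPL36A: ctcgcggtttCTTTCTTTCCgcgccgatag

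These windows are chrX:119791611-119791640 on the minus strand for RPL39, chr5:82278335-82278364 on the minus strand for RPS23 and chr15:63157458-63157487 on the minus strand for RPS27L. They are chr2:3575250-3575279 for RPS7, chr19:5690285-5690314 for RPL36 and chrX:101391001-101391030 for RPL36A on the plus strand, and chr12:120201092-120201121 on the minus strand for RPLP0. The run in RPL39 was 22 bases long, that in RPS23 was 12 bases, and RPS27L had none of at least 5 bases. A run of C followed by at least 4 more C or T, starting within 5 bases of the annotated start on the transcribed strand, was found in 50 of the 63 members with a RefSeq window (79.4%). It was found in 22.5% of the 9213 other genes of the table with a window and in 21.1% of all 27305 windows. The large subunit had it in 31 of 38 members and the small subunit in 19 of 25. The remaining 16 members had no window. A match describes the letters at the annotated start, and it was not tested whether these cells use that start.

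The members were among the most abundant transcripts for their length. In scramble, their median was 468 CPM per kilobase of spliced transcript against 10.8 over all genes with a length, and 39 of the 100 highest genes were members. The large and small subunits had medians of 466 and 486 CPM per kilobase. The length was that of 1 annotated transcript of middle length per gene, and the order of the members depends on that choice. RPL5 was the highest at 1700 CPM per kilobase with a length of 629 bases, followed by RPLP0 at 1350 and RPL8 at 1340. By CPM alone, RPL5 at 1070 stood below RPLP0 at 1340 and RPL8 at 1290. RPS26, RPL39L and RPS28 were the lowest at 7.71, 17.6 and 24.2 CPM per kilobase. The length taken was 1330 bases for RPS28 and 7072 bases for RPL14. RPL39L is the paralog of RPL39 best known from testis, so its low level stood beside 474 CPM per kilobase of RPL39. Some low levels hold only part of the reads that could belong to the gene, because processed pseudogenes with near-identical sequence were listed as genes of their own for 47 members. RPL9 was listed at 21.5 CPM in scramble, while its pseudogene RPL9P9 held 92.4% of their combined CPM. For 8 members, pseudogenes held over 50% of the combined CPM, RPS28 and RPS7 among them at 63.4% and 52.5%. RPL17 and RPS10 overlap the readthrough genes RPL17-C18orf32 and RPS10-NUDT3, which were also listed, so their values are uncertain in the same way.

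Within scramble and within CDH2 shRNA, the 79 transcripts mostly moved together from library to library. The mean log2(CPM + 1) over the members was 7.97, 8.12 and 7.81 in scramble replicates 1 to 3, and 7.68, 7.55 and 7.85 in CDH2 shRNA replicates 1 to 3. It was 8.08 and 8.05 in the 2 Cx43 shRNA libraries. Between these 2, 48 of the 79 members were higher in replicate 1, with differences from -0.19 to 0.34 and a median of 0.03. The CDH2 libraries of replicates 1 and 2 lay below all others, while the replicate 3 libraries of scramble and CDH2 shRNA lay close together. Scramble replicate 2 was above scramble replicate 3 in all 79 members, by a median of 0.32, and CDH2 shRNA replicate 3 was above replicate 2 in all 79, by a median of 0.30. These shifts within a group were similar in size to the median log2 fold change of -0.27 of CDH2 shRNA against scramble and smaller than that of -0.39 of CDH2 against Cx43 shRNA. The run correction ties them together, since only these 2 libraries share replicate number 3 and their deviations from the group means sum to 0. The lowest of the 8 libraries was CDH2 shRNA replicate 2 for 77 of the 79 members. The highest was scramble replicate 2 for 43 members and Cx43 shRNA replicate 1 for 15 and replicate 2 for 21. The members held 4.08% ± 0.375 (SD, n = 3) of the summed CPM in scramble and 3.42% ± 0.350 (SD, n = 3) in CDH2 shRNA. In the 2 Cx43 shRNA libraries they held 4.29% and 4.30%.

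**Figure D1:**
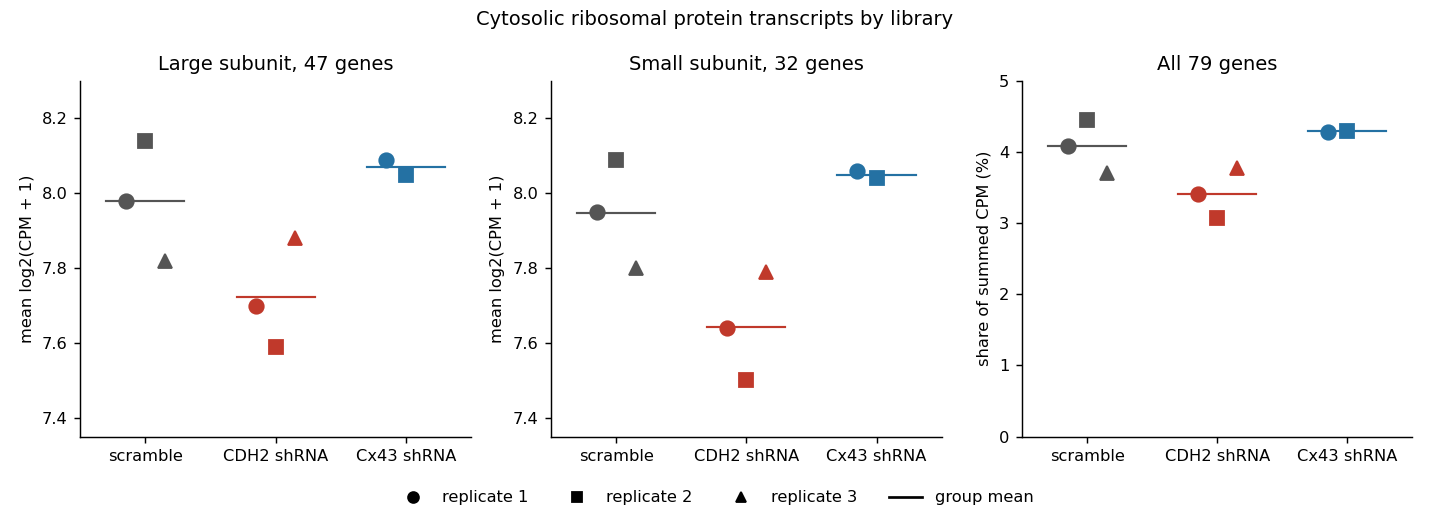
Mean log2(CPM + 1) of the 47 large subunit (left) and 32 small subunit transcripts (middle) and their share of the summed CPM in percent (right) for each of the 8 libraries, with replicate number by symbol and group means as lines. The CDH2 shRNA libraries of replicates 1 and 2 are the lowest, at shares of 3.41% and 3.07%, and the replicate 3 libraries of scramble and CDH2 shRNA lie close together at 3.70% and 3.77%.

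The subunits kept a nearly constant proportion. The large subunit held 2.52% ± 0.240 (SD, n = 3) of the summed CPM in scramble and the small subunit 1.56% ± 0.135 (SD, n = 3), and the ratio of their CPM was 1.61 to 1.63. In Cx43 shRNA this ratio was 1.63 in both libraries. In each of the 3 CDH2 shRNA libraries it was above the other 5, and the highest was 1.68 in replicate 3. The mean log2(CPM + 1) of the large subunit exceeded that of the small subunit by 0.02 to 0.04 in scramble, by 0.06 to 0.09 in CDH2 shRNA and by 0.01 and 0.04 in Cx43 shRNA. CDH2 shRNA therefore lay outside the range of the other groups in every library, by a small amount. These proportions are a description of the sums and carry no test.

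In CDH2 knockdown versus scramble, which asks what loss of N-cadherin does in these cells, all 79 members were lower and 3 of them fell past an adjusted p of 0.05. Among all 12939 genes, 6339 were lower. RPL39, a small protein that lines the exit tunnel for the nascent peptide, fell by 0.71 on the log2 scale. RPS27L, the paralog of RPS27 that is known as a p53 target, fell by 0.63, and RPS23, a protein of the decoding centre, fell by 0.46. The median log2 fold change was -0.27 over the members, -0.25 in the large and -0.28 in the small subunit, against 0.01 over all genes.

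RPL39 had log2(CPM + 1) values of 7.54, 7.66 and 7.40 in scramble, 6.83, 6.69 and 6.96 in CDH2 shRNA, and 7.13 and 7.15 in Cx43 shRNA. The 3 groups did not overlap, with Cx43 shRNA between the others. Its log2 fold change in CDH2 knockdown had a standard error of 0.11 and an adjusted p of 0.0246 from limma. The gene lies at chrX:119786504-119791630 of hg38. RPS27L, at chr15:63125872-63158021, stood at 5.41, 5.53 and 5.28 in scramble, 4.77, 4.66 and 4.90 in CDH2 shRNA, and 5.06 and 5.04 in Cx43 shRNA. Here too every CDH2 shRNA value was under every Cx43 shRNA value, and these under every scramble value (standard error 0.11, adjusted p = 0.0269 from limma). RPS23, at chr5:82273320-82278396, had 8.69, 8.82 and 8.56 in scramble, 8.19, 8.15 and 8.36 in CDH2 shRNA, and 8.67 and 8.57 in Cx43 shRNA. Only its CDH2 shRNA values stood apart, with a standard error of 0.11 and an adjusted p of 0.0482 from limma. The values of the 8 transcripts by library show that RPL39, RPS27L and RPS23 were also lower within the replicate 3 pair, by 0.45, 0.38 and 0.20 on the log2 scale.

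**Figure D2:**
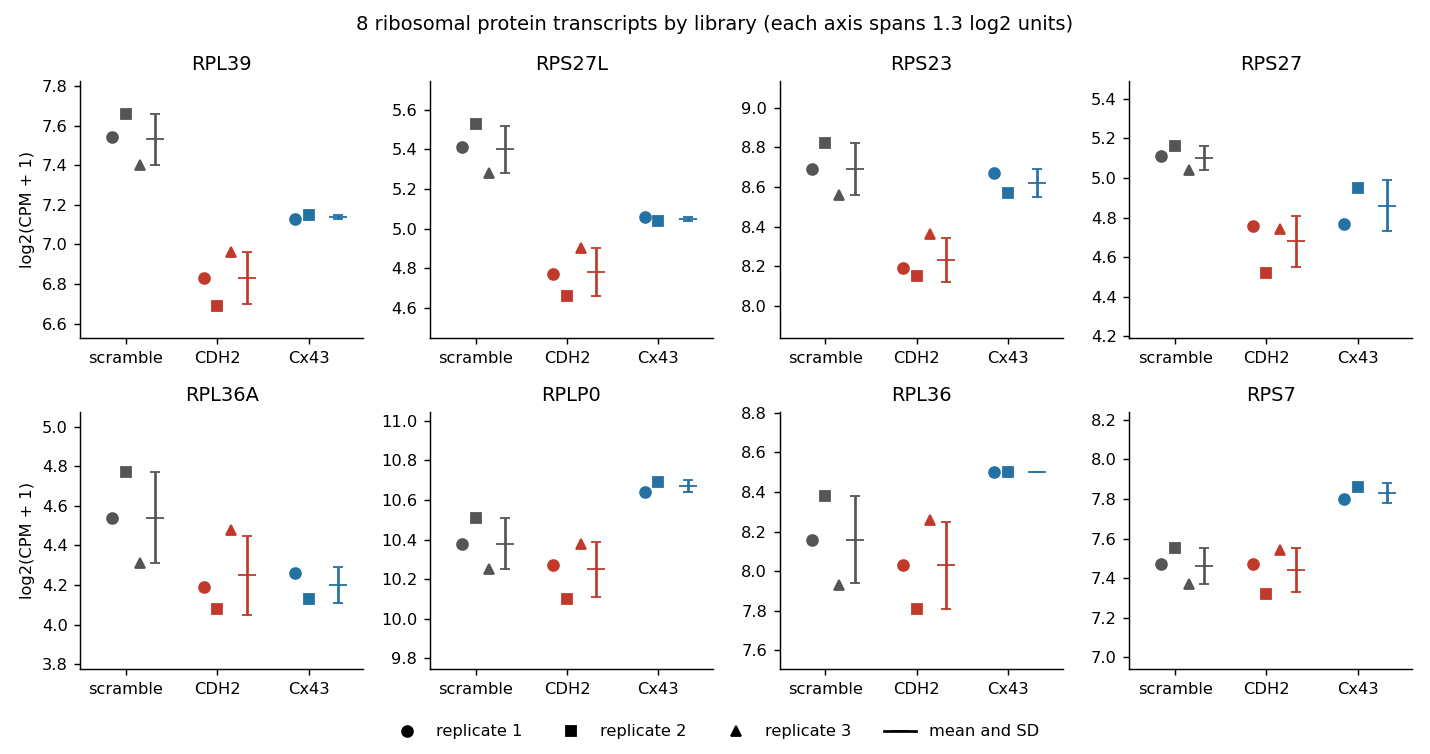
Log2(CPM + 1) of 8 members in each library, with the replicate number by symbol and the mean and SD of each group beside the points; every axis spans 1.3 log2 units. RPL39 and RPS27L separate all 3 groups, RPS23 separates CDH2 shRNA from the others, and RPS7 has like levels in scramble and CDH2 shRNA, with means of 7.46 and 7.44, and 7.83 in Cx43 shRNA.

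The 3 calls are 3.80% of the members, while 6.98% of all genes were called lower and 7.29% higher in this comparison, so calls were no more frequent among the members than elsewhere. At an unadjusted p under 0.05, 21 members (26.6%) were lower, against 18.0% of all genes, and 0 were higher. In 28 members (35.4%) all CDH2 shRNA values lay below all scramble values, against 24.8% of all genes. This held for 13 of the 47 large subunit members and for 15 of the 32 small subunit members. The counts depended on single libraries. Without the replicate 3 library of scramble or of CDH2 shRNA, 63 members passed, along with 5309 of all genes, and the median was -0.44. These 2 omissions are 1 and the same fit, since the library that stays is alone in replicate number 3. Without scramble replicate 1, 0 members and 10 of all genes passed, and without CDH2 shRNA replicate 1 or 2, 0 members and 0 of all genes. Comparing only these 2 groups gives the same fit as leaving out either Cx43 shRNA library, and there too 0 members and 0 of all genes passed. The median was -0.13 without scramble replicate 2, when 2 members and 1568 of all genes passed, and -0.14 without CDH2 shRNA replicate 2. A fit without the replicate number as a block called 29 members and 5607 of all genes.

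The differences between libraries of the same replicate number show this split. In replicate 1, 78 of the 79 members were lower in CDH2 shRNA than in scramble, by a median of 0.29 on the log2 scale. In replicate 2 all 79 were lower, with a median difference of -0.57. In replicate 3, 28 were lower and 51 higher, with a median difference of 0.06. The large subunit had a median of 0.08 in that pair and the small subunit 0.00. Among all 12939 genes, 6428, 6453 and 6177 were lower in replicates 1, 2 and 3.

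**Figure D3:**
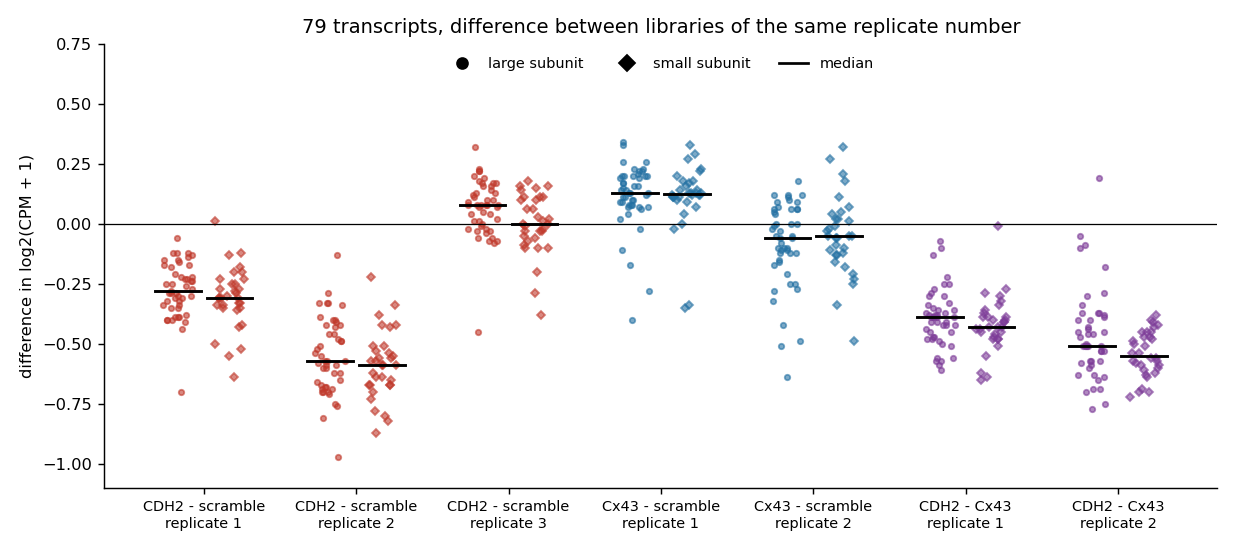
Difference in log2(CPM + 1) between libraries of the same replicate number for each of the 79 members, with circles for the large and diamonds for the small subunit and the median as a black line. The CDH2 shRNA minus scramble differences have medians of -0.29, -0.57 and 0.06 in replicates 1, 2 and 3, and CDH2 shRNA minus Cx43 shRNA has -0.41 and -0.51 in replicates 1 and 2.

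Among the members that did not pass, the lowest were RPS20, RPS19, RPS12 and RPS27, all of the small subunit. RPS19, the gene most often mutated in Diamond-Blackfan anemia, had 8.73, 8.92 and 8.55 in scramble and 8.21, 8.12 and 8.45 in CDH2 shRNA (log2 fold change -0.47, standard error 0.14, adjusted p = 0.0716 from limma). RPS27 had 5.11, 5.16 and 5.04 in scramble and 4.76, 4.52 and 4.74 in CDH2 shRNA, without overlap (log2 fold change -0.43, standard error 0.11, adjusted p = 0.0532 from limma). RPS20 was at -0.49 and RPS12 at -0.43, with adjusted p of 0.0730 and 0.0872 from limma. In both, all 3 CDH2 shRNA values were under the scramble range.

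At the other end were RPS7, RPL9, RPL5, RPS2, RPL10 and RPL7A, with log2 fold changes of -0.02, -0.03, -0.05, -0.10, -0.12 and -0.12. RPS7, which is known to bind MDM2, had 7.47, 7.55 and 7.37 in scramble and 7.47, 7.32 and 7.54 in CDH2 shRNA, and its groups overlapped. RPL9 had 4.48, 4.63 and 4.37 in scramble and 4.30, 4.50 and 4.59 in CDH2 shRNA. When the CPM of RPL9P9 was added to that of RPL9, an alternative chosen after the values had been seen, its log2 fold change was -0.33 in place of -0.03 (adjusted p = 0.111 from limma). The same step left RPS7 at 0.03, RPL39 at -0.68 and the median of the members at -0.27.

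The members with other known roles spread from -0.36 to -0.05. RPL5 and RPL11, which form the 5S RNP that binds MDM2, differed from each other, with log2 fold changes of -0.05 and -0.36 (standard errors 0.11 and 0.14). The stalk proteins that contact the elongation factors split in the same manner, with RPLP0 at -0.13 and RPLP1 and RPLP2 at -0.35 each. No test of the difference between members was made. RPS6, the substrate of S6 kinase, was at -0.25, and RPS14, whose loss marks the 5q- syndrome, at -0.27. RPSA, also known as the laminin receptor precursor, was at -0.30, RPS27A, which is made as a fusion with ubiquitin, at -0.32, and RPS3 at -0.26. In the large subunit, RPL3 at the peptidyl transferase centre was at -0.14, the late-joining protein RPL10 at -0.12, RPL10A at -0.20, RPL22 at -0.20, the very short protein RPL41 at -0.33 and RPL39L at -0.24. None of these passed the test, with adjusted p from 0.0829 for RPLP2 to 0.734 for RPL5 (limma).

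**Figure D4:**
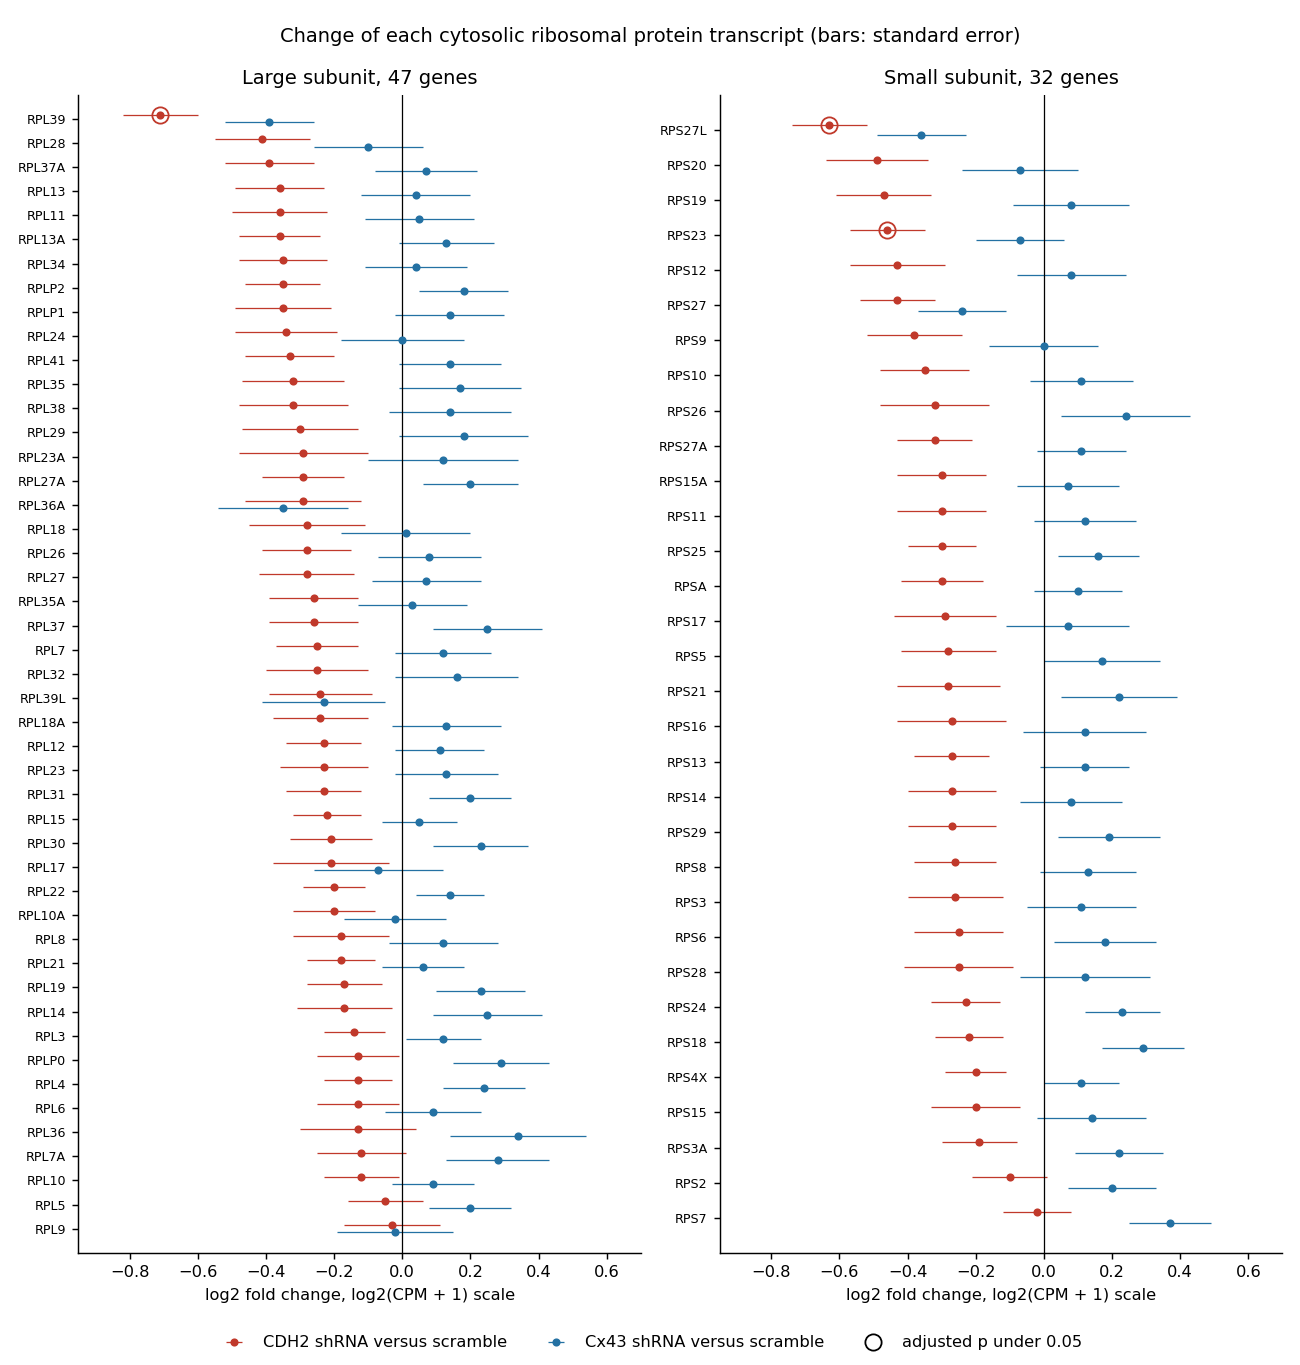
Log2 fold change with its standard error for each of the 79 members in CDH2 shRNA versus scramble and Cx43 shRNA versus scramble, sorted by the former within each subunit; rings mark an adjusted p under 0.05. All 79 CDH2 values lie left of 0, between -0.71 and -0.02, and the Cx43 values run from -0.39 to 0.37.

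Transcript length moved with this comparison. The members are short, with a median spliced length of 693 bases against 2347 bases for the other genes, and 66 of the 79 are at most 1000 bases long. Other genes of up to 600 bases had a median log2 fold change of -0.22 in CDH2 knockdown, those over 600 and up to 1000 bases -0.18, and those over 4000 bases 0.21. The members in the first 2 of these ranges had medians of -0.30 and -0.24. In each library, the median of genes up to 1000 bases minus that of genes over 4000 bases was -0.34, -0.19 and -0.52 in scramble, -0.75, -0.92 and -0.56 in CDH2 shRNA, and -0.44 and -0.43 in Cx43 shRNA, the same order of libraries within scramble and within CDH2 shRNA as for the members. After a correction for length and GC content in each library, the median of the members was -0.09, with 66 lower, and the subunits were at -0.09 and -0.12. RPL39, RPS27L and RPS23 remained past the threshold at -0.52, -0.51 and -0.41 (adjusted p = 0.0228, 0.0249 and 0.0464 from limma). They were the 3 of 79 members called in that fit, where 1541 of the 11888 genes with a length passed. The part of length in the result was not tested beyond this. With every library centred on the mean of the members, chosen after the values had been seen, 0 members and 0 of all genes passed. RPL39 and RPS27L were then at -0.43 and -0.36 (adjusted p = 0.0777 and 0.0906 from limma).

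**Figure D5:**
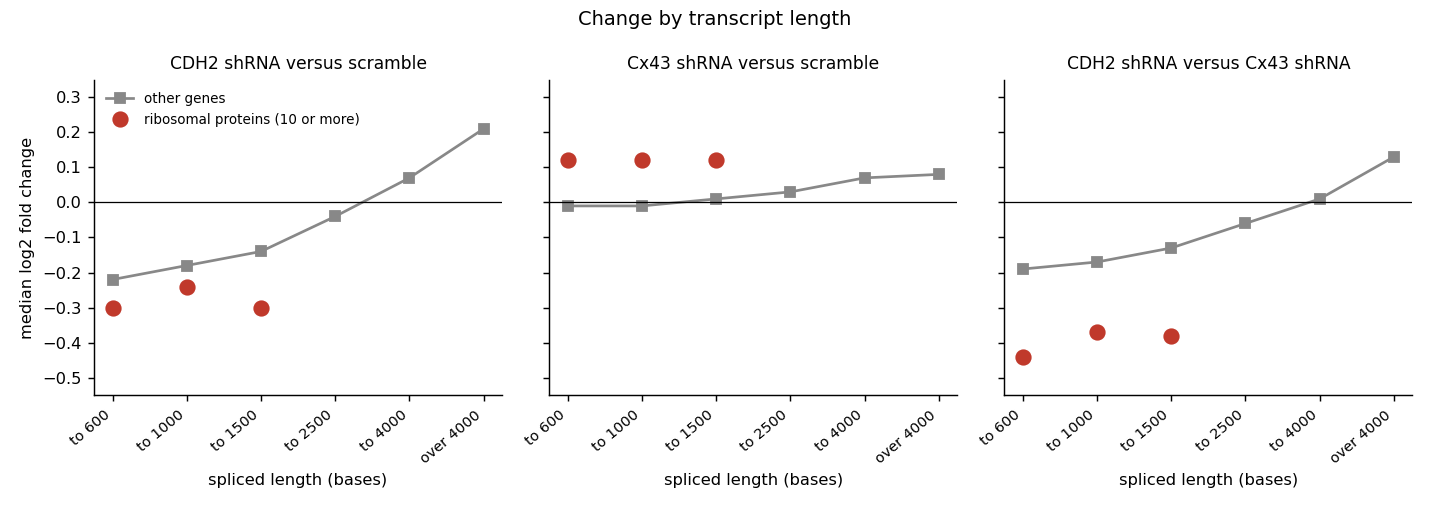
Median log2 fold change by spliced transcript length for other genes (grey squares) and for ribosomal protein transcripts in ranges with 10 or more of them (red circles) in the 3 comparisons. In CDH2 shRNA versus scramble the grey line runs from -0.22 to 0.21 and the members lie at -0.30, -0.24 and -0.30; in Cx43 shRNA versus scramble the members lie at 0.12 in all 3 ranges.

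In Cx43 knockdown versus scramble, 66 members had a higher mean and 13 a lower one, while 7458 of all genes were higher and 5481 lower. Of the members, 0 passed the test (lowest adjusted p = 0.154 from limma), where 0.788% of all genes were called lower and 0.417% higher. The median log2 fold change was 0.12 over the members and in each subunit, against 0.04 over all genes. At an unadjusted p under 0.05, 2 members were higher (RPS7 and RPS18), against 12.2% of all genes, and 2 were lower (RPL39 and RPS27L), against 9.41%. In 23 members (29.1%) both Cx43 shRNA values lay above all scramble values, against 31.4% of all genes, and in 4 (5.06%) both lay below, against 21.4%. With quantile normalization the median was 0.04. Without the replicate 3 library of scramble or of CDH2 shRNA, 3 members and 2133 of all genes passed and the median was 0.04, and without scramble replicate 2 it was 0.27. Without the replicate block 4 members and 3140 of all genes passed.

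RPS7 was the highest member, with 7.80 and 7.86 in Cx43 shRNA against 7.47, 7.55 and 7.37 in scramble (log2 fold change 0.37, standard error 0.12, adjusted p = 0.154 from limma). It was followed by RPL36 at 0.34, RPS18 and RPLP0 at 0.29 and RPL7A at 0.28. RPLP0 had 10.64 and 10.69 in Cx43 shRNA against 10.38, 10.51 and 10.25 in scramble. In each of these 5, both Cx43 shRNA values were above the scramble range. The 5 lowest were RPL39 at -0.39, RPS27L at -0.36, RPL36A at -0.35, RPS27 at -0.24 and RPL39L at -0.23. RPL36A had 4.26 and 4.13 against 4.54, 4.77 and 4.31 in scramble. RPL39, RPS27L, RPL36A and RPS27 are the 4 members whose Cx43 shRNA values both lay under the scramble range.

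Side by side, RPL39 was at -0.71 in CDH2 knockdown and -0.39 in Cx43 knockdown, RPS27L at -0.63 and -0.36, and RPS27 at -0.43 and -0.24. RPS23 was at -0.46 and -0.07, and RPS19 at -0.47 and 0.08. Both comparisons use the same scramble libraries, so these pairs of values are not independent.

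By replicate number, the median difference between Cx43 shRNA and scramble was 0.13 in replicate 1, with 9 members lower, and -0.05 in replicate 2, with 51 lower. The direction for the members as a whole was thus not the same in the 2 pairs. Among all 12939 genes, 5291 were lower in replicate 1 and 6075 in replicate 2.

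The knockdowns were also set against each other in the same fit, in which the scramble libraries share the replicate terms and the estimate of the spread. In 74 of the 79 members (93.7%) all CDH2 shRNA values lay below both Cx43 shRNA values, against 29.1% of all genes. This held for 42 of the 47 members of the large subunit and all 32 of the small subunit, and the exceptions were RPL9, RPL10A, RPL17, RPL36A and RPL39L. The median log2 fold change was -0.39 over the members, -0.37 in the large and -0.40 in the small subunit. All but RPL36A at 0.06 were lower, 78 members, where 7096 of the 12939 genes were lower. No member passed the adjusted test (lowest adjusted p = 0.140 for RPS18, limma), nor did any of the 12939 genes (0.0% called lower). At an unadjusted p under 0.05, 43 members (54.4%) were lower, against 11.4% of all genes.

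The lowest were RPS26 at -0.56, RPS19 at -0.55, RPLP2 at -0.53, and RPS12, RPS18 and RPL37 at -0.51. RPS18, a protein of the head of the small subunit, had 8.91, 8.73 and 8.94 in CDH2 shRNA against 9.32 and 9.43 in Cx43 shRNA (standard error 0.12). RPLP2 had a standard error of 0.13 and an adjusted p of 0.148 from limma. RPS26 is the least abundant member per length, at 2.93, 2.77 and 3.18 against 3.55 and 3.49, and its change on this scale is understated by the pseudocount. By replicate number, all 79 members were lower in CDH2 than in Cx43 shRNA in replicate 1 and 78 in replicate 2, with median differences of -0.41 and -0.51. Among all genes, 7386 and 6753 were lower in these pairs. After the length and GC correction the median was -0.24, with 75 members lower. Without the replicate 3 library of scramble or of CDH2 shRNA, 65 members and 2131 of all genes passed. Without scramble replicate 2, 21 members and 865 of all genes passed, and without the block 37 members and 2784 of all genes. Without CDH2 shRNA replicate 2 the median was -0.24.

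Features that the rule did not use were compared within the family. The genes lie on 21 chromosomes, with 12 on chromosome 19 and 8 on chromosome 3. Introns of ribosomal protein genes are known to hold snoRNA genes, and 28 of the 79 members (35.4%) had at least 1 snoRNA gene within their bounds on the same strand, 59 snoRNA genes in all, against 1.74% of the other genes. The median log2 fold change of these hosts was -0.26 with CDH2 shRNA and 0.12 with Cx43 shRNA, and that of the other 51 members was -0.28 and 0.11. The 50 members with a pyrimidine run at the start had medians of -0.28 and 0.12, and the 13 members without one -0.22 and 0.09. RPL39 with the longest run and RPS27L with none were the 2 lowest members in CDH2 knockdown. Across the 79 members, which share their libraries, Pearson's r of the log2 fold change with log2 length was 0.30 for the CDH2 comparison and 0.18 for the Cx43 comparison.

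Of 7 ribosomal proteins whose names fall outside the rule, 6 had a lower mean with CDH2 shRNA, with a median of -0.20, and 4 were higher in Cx43 knockdown, with a median of 0.07. RPL36AL, the paralog of RPL36A, was the lowest at -0.38 and RPL7L1 the highest at 0.25, and none passed in any comparison. Of 16 translation factors and other genes of the TOP class, 11 were lower in CDH2 knockdown (median -0.09) and all 16 were higher in Cx43 knockdown (median 0.12). In the latter, 7458 of the 12939 genes were higher too, and in CDH2 knockdown 6339 were lower. TPT1 was the lowest at -0.30, and EIF2S3, a subunit of the initiation factor that brings the initiator tRNA, rose by 0.46 in CDH2 knockdown (adjusted p = 0.0470 from limma). It was the only call among the 16, where 7.29% of all genes were called higher. After the length and GC correction, the CDH2 knockdown medians of the 7 and the 16 were -0.03 and -0.11.

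Of 34 biogenesis factors, 26 were higher in CDH2 knockdown and 8 lower, their median was 0.13, and 4 rose, with UTP20 by 0.98, NOP2 by 0.58 and UTP4 by 0.45 among them (adjusted p = 0.0209, 0.0368 and 0.0413 from limma). UTP20 and UTP4 belong to the small subunit processome, and NOP2 acts in large subunit assembly. Among all 12939 genes, 6600 were higher and 6339 lower in this comparison. By the test, 7.29% were called higher and 6.98% lower, the background for every list of this paragraph. The difference between the biogenesis factors and the ribosomal proteins was not tested. In Cx43 knockdown 31 of the 34 were higher, against 7458 of the 12939 genes, with a median of 0.14, and none passed. Of 16 genes of RNA polymerase I and its factors, POLR1B and TAF1B rose in CDH2 knockdown, by 0.49 and 0.33, and POLR2K, a small subunit shared by the polymerases, fell by 0.42. The median of these 16 was -0.03. None of 15 genes of mTORC1, LARP1 and MYC passed, and their medians were -0.06 against scramble for CDH2 shRNA and -0.02 for Cx43 shRNA. In a group of 7 genes around the 5S RNP and its sensing through MDM2 and p53, MDM2 rose by 0.46 in CDH2 knockdown (adjusted p = 0.0333 from limma), and none passed in Cx43 knockdown. Of 11 long noncoding RNAs that host snoRNAs, 8 were lower in CDH2 knockdown, with a median of -0.22, and SNHG6 fell by 0.54 (adjusted p = 0.0256 from limma). After the length and GC correction, the CDH2 knockdown medians were -0.08 for these 11 RNAs and 0.11 for the biogenesis factors. The RNA polymerase I genes were then at 0.06 and the mTORC1, LARP1 and MYC genes at 0.03. The 5S RNP group went from a median of 0.22 to 0.04.

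The mitochondrial ribosomal proteins, which are nuclear genes for the ribosome of the organelle, were lower in 58 of 75 cases in CDH2 knockdown, with a median of -0.19. Among all 12939 genes, 6339 were lower. MRPL41 and MRPS33 fell by 0.55 and 0.39 (adjusted p = 0.0433 and 0.0442 from limma). These are 2 of 75 genes, a smaller share than the 6.98% of all genes called lower. After the length and GC correction their median was -0.05. In Cx43 knockdown their median was 0.05 and none passed. The 91 listed ribosomal protein pseudogenes had medians of -0.22 and 0.09, and in CDH2 knockdown 3 fell, RPL39P3 among them by 0.56, and 2 rose. These are smaller shares than the 6.98% and 7.29% of all genes called lower and higher. After the length and GC correction, the median of the pseudogenes in CDH2 knockdown was -0.02. The difference between the lists was not tested. Every call of CDH2 shRNA against scramble in these lists was lost, as were those of all genes, with only the groups compared and without CDH2 shRNA replicate 1 or 2 or either Cx43 shRNA library, where 0 genes passed.

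Library-wide measures moved with the groups as well. Transcripts of the mitochondrial genome held 0.594% to 1.01% of the summed CPM in scramble and 1.16% to 2.36% in the knockdowns, and the 13 of them had median log2 fold changes of 1.06 in CDH2 and 1.10 in Cx43 knockdown, with none past the threshold. MALAT1, a nuclear-retained RNA, fell by 0.39 in CDH2 knockdown and by 0.76 in Cx43 knockdown (adjusted p = 0.0339 and 0.0354 from limma). NEAT1, the other nuclear-retained RNA examined, did not share this fall. Its mean log2(CPM + 1) was 7.85 in scramble, 7.99 in CDH2 shRNA and 7.86 in Cx43 shRNA. The 8 mesenchymal markers summed to between 2230 and 2670 CPM over the libraries. Of markers of other cells, 3 of 9 luminal (538 to 834 CPM in sum), 2 of 7 stromal (29.6 to 66.3 CPM), 1 of 6 leukocyte (12.6 to 21.5 CPM) and 1 of 4 endothelial genes (2.18 to 4.67 CPM) were listed. The luminal gene EPCAM and the stromal gene PDGFRB fell in CDH2 knockdown, by 0.37 and 0.63. Of the 3 luminal and the 2 stromal genes, 1 each passed the test in that comparison, where 6.98% of all genes were called lower. All 3 luminal genes were lower there, while of the 2 stromal genes 1 was lower and 1 higher. Of the stem cell genes POU5F1, SOX2 and NANOG, only POU5F1 was listed, at 10.9 to 13.4 CPM. The part of these measures in the changes of the ribosomal proteins was not tested, and in bulk RNA a lower level in every cell and a smaller share of cells with a high level cannot be told apart.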

How the data were processed

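Total RNA of sorted CSCs was depleted of rRNA and sequenced single-end by the authors. The deposited values are log2(CPM + 1) per gene, made by the authors in Partek Flow: reads were aligned, with STAR 2.6.1 and hg38 named in the submitters' processing notes, genes were quantified by expectation maximization, low genes and 1 sample of low quality were removed, and the run effect was modelled and removed. Such values carry no depth, and removing run effects ties libraries of a replicate number together: what remained in a replicate number after subtracting group means added up to 0.0001 or less. Each replicate number therefore holds the mirrored deviations of its libraries, and their correlation gives no check of the pairing, which was taken from the labels.

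The 12939 named genes of all 8 libraries were tested on the deposited scale with limma 3.58.1 (R 4.3.3), with group and replicate number as terms and Benjamini-Hochberg adjustment over all genes, and 1 unnamed entry was left out. The fit has 3 residual degrees of freedom, while the residuals vary in only 2 directions. The threshold was an adjusted p of 0.05. The script was tested on simulated data. The values hold no counts, so no interval from depth is given. CPM was recovered by subtracting the pseudocount of 1. Spliced lengths, GC content (11888 genes, 91.9%), positions and snoRNA genes came from GENCODE on hg38, and start sites from RefSeq (GRCh38.p14). Length and GC content were those of 1 annotated transcript of middle length per gene.

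Named members were the 5 highest and 5 lowest of each comparison, those past the threshold, the 3 highest and lowest per kilobase, and members with known roles, and in other lists up to 3 genes past the threshold with the highest and lowest. The members and lists were chosen with earlier results of these data known. Alternatives were no replicate block, quantile normalization, median centring, a filter that kept the 75% most abundant genes, a mean-variance trend, a pseudocount of 0.1, only the groups compared, a loess correction for length and GC (span 0.3), 2 residual directions, the fold of the study's methods, and leaving out each library.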

Additional observations from a re-analysis of the deposited data

How the results depend on the processing

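The limits are few replicates, an unknown depth and a run correction that ties the replicate 3 libraries together. The 3 members called lower in CDH2 knockdown numbered 0 with the fold of the methods added, 0 with only the groups compared, 1 with 2 residual directions and 0 to 63 with each library left out. Over all genes the counts there were 267, 0, 296 and 0 to 5309, against 1846 in the main fit. The median of -0.27 was -0.09 after the length and GC correction and -0.44 to -0.13 with each library left out. In Cx43 knockdown the 0 calls became 3 with only the groups compared and 0 to 3 with each library left out, with medians of 0.04 to 0.27. Over all 12939 genes the counts there were 2807 and 0 to 2133, against 156 in the main fit. Between the knockdowns the 0 calls became 16 with only the groups compared and 0 to 65 with each library left out, with medians of -0.46 to -0.24. Over all genes the counts there were 559 and 0 to 2131. Without the replicate block the counts were 29, 4 and 37 in the 3 comparisons, along with 5607, 3140 and 2784 of all genes. After the data had been seen, 3 alternatives were added. With replicate numbers 1 and 2 only, the counts were 63, 3 and 65, and the CDH2 median was -0.44. This is the same fit as leaving out 1 of the replicate 3 libraries, so it adds no separate result. With pseudogene CPM added to the members, 3 single-member values moved, RPL9 in CDH2 knockdown from -0.03 to -0.33 among them. Centring on the mean of the members fixes their median near 0 by construction (0.00 in CDH2 knockdown and -0.02 between the knockdowns). There 0 members and 0 of all genes passed in each comparison. The cause of the other changes was not tested. RPS23 had an adjusted p of 0.0533 with a pseudocount of 0.1 (limma). With only the groups compared, RPL39, RPS27L and RPS23 had 0.0597, 0.0625 and 0.0882, and with 2 residual directions 0.0491, 0.0615 and 0.114 (limma). The difference between the subunit medians was 0.03, 0.00 and 0.03, and it stayed within the spread between libraries under every alternative run. That spread, 0.0435, is larger than the differences themselves, so staying within it cannot show that they are stable.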
